A study of Mus musculus with 2 samples.

Results

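The collagen genes of the embryonic mouse esophagus were followed across the cell types that supply them. The members were the genes whose symbol in the deposited gene list is Col, a number, a and a number, without Col17a1 and Col7a1, which gave 42 of 32285 genes. They were read in the epithelial-like, fibroblast-like, mural-like (smooth muscle or pericyte) and endothelial-like cells of a p63-KO library and in the epithelial-like cells of a wild-type library. The classes held 1664 epithelial, 517 fibroblast, 73 mural and 69 endothelial cells in the p63-KO library, and 5369 epithelial cells in the wild-type library.

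Both libraries came from C57BL/6 embryos at day E18.5 of development. The p63-KO embryos carried p63-CreER on both alleles, and their controls, littermates labelled wild type, carried p63-CreER as well, so the control is a carrier of the targeted allele rather than an animal with 2 unmodified copies. The muscle layer was pulled away with forceps, the tissue was treated with dispase for 5 min and the epithelium was taken apart by trypsin (0.1%, at 37 °C, over 10 min) before passing a strainer of 40 µm, so the fibroblast, mural and endothelial cells are those left in an epithelial preparation. Each genotype was 1 library of 3' transcript counts, and the number of embryos in it is not given.

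Collagens are triple helices built from chains that a cell assembles and secretes. Types I, III, V and XI form the banded fibrils of connective tissue, type VI forms beaded filaments, type IV forms the network of basement membranes, and types VIII, XV and XVIII lie near basement membranes and vessels. In a lined organ such as the esophagus, fibroblasts beneath the epithelium are known as the main makers of fibrils, while epithelial, endothelial and mural cells all add to basement membranes. p63, encoded by Trp63, is the transcription factor that stratified epithelia need to keep their basal cells.

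The type IV chains are encoded in 3 head-to-head pairs, whose starts are shown because several results below turn on whether the partners of a pair had like or unlike levels. The promoter windows are RefSeq sequences of the mouse build GRCm38.p6, 300 bases each, from 250 before to 50 after the annotated start. The starts of Col4a1 and Col4a2 overlap by 22 bases, which are the capitals in the Col4a1 window (chr8:11312777-11313076, minus strand).

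Col4a1: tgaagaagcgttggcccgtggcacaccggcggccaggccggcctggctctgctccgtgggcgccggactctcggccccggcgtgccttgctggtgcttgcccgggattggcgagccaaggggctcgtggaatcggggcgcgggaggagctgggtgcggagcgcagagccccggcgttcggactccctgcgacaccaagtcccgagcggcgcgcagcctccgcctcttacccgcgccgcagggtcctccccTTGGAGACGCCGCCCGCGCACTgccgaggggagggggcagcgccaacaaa

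Between the starts of Col4a4 and Col4a3 lie 71 bases, the capitals in the Col4a4 window (chr1:82586800-82587099, minus strand).

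Col4a4: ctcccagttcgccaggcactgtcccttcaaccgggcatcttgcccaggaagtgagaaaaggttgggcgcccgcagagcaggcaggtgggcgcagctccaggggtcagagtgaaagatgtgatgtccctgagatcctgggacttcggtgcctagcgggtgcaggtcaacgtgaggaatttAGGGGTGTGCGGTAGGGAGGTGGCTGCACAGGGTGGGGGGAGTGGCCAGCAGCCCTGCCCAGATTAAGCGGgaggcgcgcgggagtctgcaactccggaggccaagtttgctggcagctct

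By the GENCODE gene annotation, 1308 bases lie between the starts of Col4a6 (141474076) and Col4a5 (141475385). The RefSeq start that set the Col4a5 window differs from this one. The Col4a6 window is on the minus strand (chrX:141474027-141474326) and the Col4a5 window on the plus strand (chrX:141475169-141475468). Capitals in both mark the GC box GGGCGG, found by a search of both strands (in Col4a6 on the reverse strand); no CCAAT box overlaps either match.

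Col4a6: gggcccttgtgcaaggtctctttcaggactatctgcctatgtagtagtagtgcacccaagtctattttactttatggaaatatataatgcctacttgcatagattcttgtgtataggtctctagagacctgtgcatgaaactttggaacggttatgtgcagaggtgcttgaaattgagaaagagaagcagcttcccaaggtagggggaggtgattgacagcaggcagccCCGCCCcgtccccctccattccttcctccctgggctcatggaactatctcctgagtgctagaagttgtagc

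Col4a5: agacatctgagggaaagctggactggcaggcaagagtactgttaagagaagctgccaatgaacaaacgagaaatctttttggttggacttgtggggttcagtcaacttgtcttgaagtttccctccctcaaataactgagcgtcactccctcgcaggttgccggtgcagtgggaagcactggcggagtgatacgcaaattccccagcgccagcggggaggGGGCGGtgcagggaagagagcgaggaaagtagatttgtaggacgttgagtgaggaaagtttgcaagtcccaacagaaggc

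The GC box stood in 35.7% of 32851 mouse promoter windows of the same length, and the CCAAT box, written CCAAT, in 37.4%. In these letters GC content was 74.0% for Col4a1 and 63.3% for Col4a4, against 48.3% for Col4a6 and 52.7% for Col4a5, beside a median of 52.7% over those windows. A match is a run of letters and not a shown binding site.

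The p63-KO library held 2821 barcodes and the wild-type library 6034, with 8 barcodes in common, and 86504624 and 76472445 UMIs (unique molecular identifiers, each counting 1 captured transcript). After filters and removal of probable doublets, 2375 p63-KO and 5519 wild-type cells were left. Each named class had every one of its own markers in at least 25% of its cells, 10 epithelial, 10 fibroblast, 11 mural and 10 endothelial ones, with summed levels of 11007, 10459, 34346 and 7516 CPM (counts per 1000000 UMIs of the class) and 14141 CPM for the markers of wild-type epithelium. Trp63 itself had 119 CPM in p63-KO epithelium and 302 CPM in wild-type epithelium, but 3' counts may come from outside the altered part of the gene, so this does not check the genotypes. With 1 library per genotype, and with classes that are clusters of 1 library, no difference was tested: the 95% intervals are exact Poisson (levels), exact conditional binomial (folds) and Clopper-Pearson (shares) intervals, and cover counting error only. A 3' count is made once per transcript end, so levels were not divided by length. Whether reads were counted by strand is not given, and Col4a1 and Col4a2 overlap each other on opposite strands, as do Col18a1 and Slc19a1.

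Collagen transcripts made up 1.23% (1.22 to 1.25) of all UMIs in mural cells, 4.52% (4.50 to 4.54) in fibroblasts, 0.482% (0.469 to 0.495) in endothelium, 0.0469% (0.0464 to 0.0474) in p63-KO epithelium and 0.05% (0.0495 to 0.0506) in wild-type epithelium. Fibroblasts therefore carried the highest share. The order of the epithelia depended on the cells and weights used: the p63-KO and wild-type shares were 0.0809% and 0.0441% in cells without a UMI of another class's defining markers, 0.0587% and 0.0543% with every cell weighed equally, and 0.0341% and 0.0502% without the ciliated-like, neuroendocrine-like and ionocyte-like cells. Of the 36 members with at least 5 CPM in a p63-KO class, 4 were highest in mural cells, 24 in fibroblasts, 6 in endothelium and 2 in epithelium. Over all 13564 genes with that level, 19% were highest in mural cells, 23.8% in fibroblasts, 29.6% in endothelium and 27.5% in epithelium. The makeup differed as well: fibril-forming collagens were 86.1% of collagen UMIs in fibroblasts and 59.3% in mural cells, but 2.45% in endothelium, 35.7% in p63-KO epithelium and 6.61% in wild-type epithelium. The type IV chains took 78.0% of collagen UMIs in endothelium, 16.8% in mural cells, 1.89% in fibroblasts, 29.4% in p63-KO epithelium and 59.6% in wild-type epithelium.

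**Figure D1:**
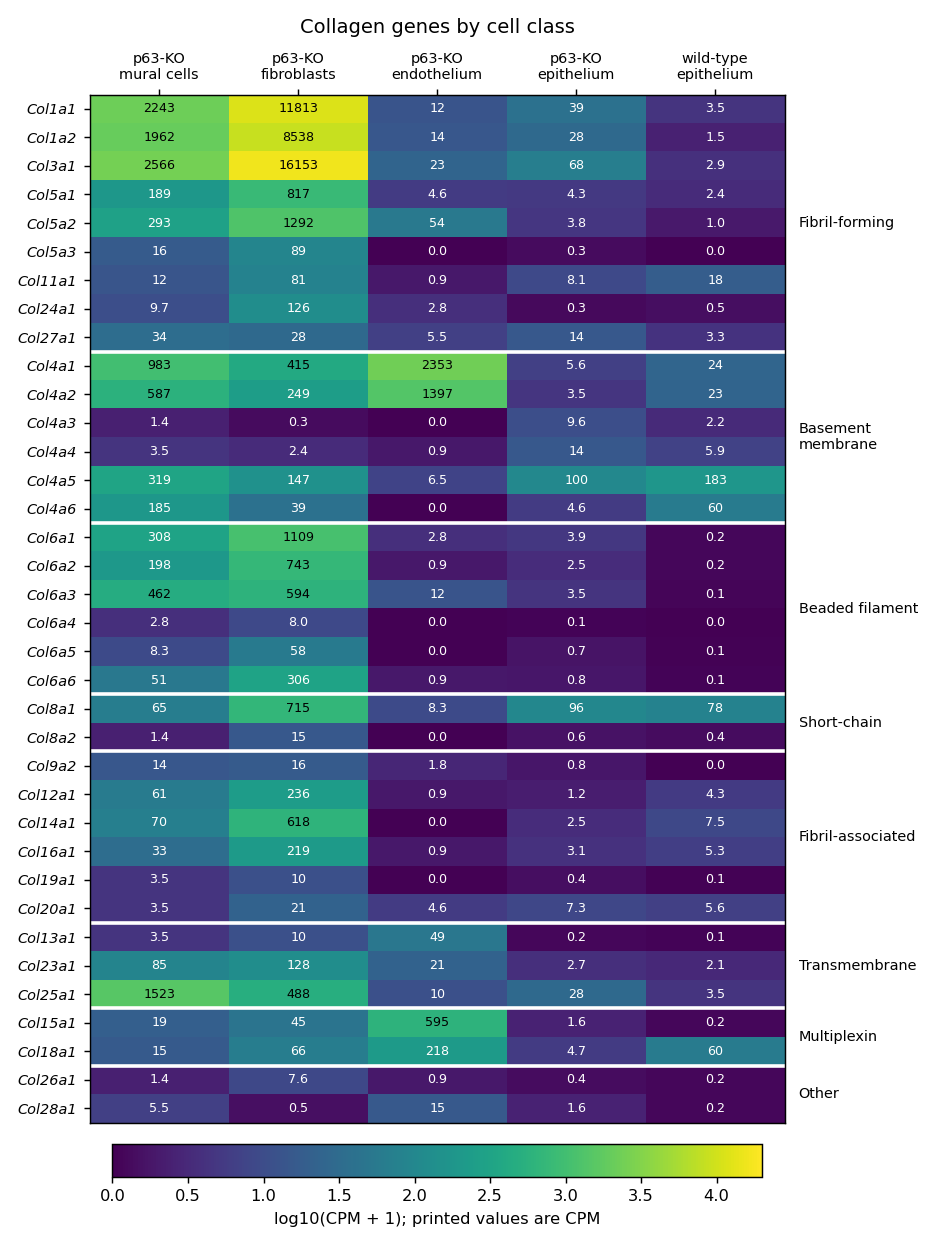
Levels of the 36 collagen genes with at least 5 CPM in any of the 5 classes (rows, grouped by the kind of collagen) in mural cells, fibroblasts, endothelium and epithelium of the p63-KO library and in wild-type epithelium (columns). Colour is log10(CPM + 1) and the printed values are CPM from 1 library per genotype. The type I and III genes are brightest in fibroblasts, Col4a1, Col4a2 and Col15a1 in endothelium, and Col25a1 in mural cells.

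Against p63-KO epithelium, 31 of the 35 members with at least 5 CPM in either class were at least 2-fold higher in fibroblasts, where 20.6% of all genes were, and 2 were at least 2-fold lower, where 21% of all genes were. Mural cells gave 26 of 31 members higher (19.8% of all genes) and 3 lower (20.1% of all genes). Endothelium gave 9 of 20 higher (20.8% of all genes) and 10 lower (23.3% of all genes). The median log2 ratio of the members, with 1 CPM added to each level, was 5.10 for fibroblasts, 4.33 for mural cells and -0.77 for endothelium, beside 0.02, -0.01 and 0.05 for all genes. These 3 comparisons share the same epithelial cells. Mural cells against fibroblasts gave 6 of 34 members at least 2-fold higher (14.8% of all genes) and 24 lower (14.3% of all genes). At least 5 CPM was reached by 12 members in p63-KO epithelium, 33 in fibroblasts, 28 in mural cells and 16 in endothelium. A member that reached it in 1 class of a comparison alone could not be called higher in the other. The counts and medians therefore follow in part from the filter.

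Among the fibril-forming collagens, Col1a1, the main chain of type I collagen (chromosome 11, 94936224 to 94953042, mm10), had 2243 CPM in mural cells, 11813 CPM in fibroblasts, 11.98 CPM in endothelium, 39.2 CPM in p63-KO epithelium and 3.52 CPM in wild-type epithelium. Col1a2, its partner chain (chromosome 6), had 1962 CPM in mural cells, 8538 CPM in fibroblasts, 13.8 CPM in endothelium, 28.4 CPM in p63-KO epithelium and 1.47 CPM in wild-type epithelium. Col3a1, which forms type III homotrimers and co-assembles with type I in elastic tissue (chromosome 1), had 2566 CPM in mural cells, 16153 CPM in fibroblasts, 23.0 CPM in endothelium, 68.1 CPM in p63-KO epithelium and 2.95 CPM in wild-type epithelium. These 3 genes were the largest collagen transcripts of fibroblasts and of mural cells, and in mural cells Col1a1 was 5.27-fold lower (95% interval 5.08 to 5.46) than in fibroblasts. Mural cells also had 6 of the 10 fibroblast markers in at least 25% of their cells. These markers summed to 1532 CPM in mural cells, against 10459 CPM in fibroblasts. The part of fibroblast RNA in the mural collagen values was not tested. Col5a1, a chain of the type V collagen that starts and regulates fibrils, had 189 CPM in mural cells, 817 CPM in fibroblasts, 4.61 CPM in endothelium, 4.26 CPM in p63-KO epithelium and 2.39 CPM in wild-type epithelium. Col5a2, its partner, had 293 CPM in mural cells, 1292 CPM in fibroblasts, 54.4 CPM in endothelium, 3.79 CPM in p63-KO epithelium and 0.992 CPM in wild-type epithelium, and Col5a3, a rarer chain, had 15.9 CPM in mural cells, 88.8 CPM in fibroblasts, 0 CPM in endothelium, 0.348 CPM in p63-KO epithelium and 0.0146 CPM in wild-type epithelium. Col5a2 thus stood out in endothelium among the type V genes; 3 counts would amount to 2.76 CPM there, so the 0 for Col5a3 allows a level up to that value. Col24a1, a fibrillar collagen best known from bone, had 9.71 CPM in mural cells, 126 CPM in fibroblasts, 2.76 CPM in endothelium, 0.265 CPM in p63-KO epithelium and 0.452 CPM in wild-type epithelium. Unlike those genes, Col11a1, a chain of the type XI collagen found inside thin fibrils, had a value in wild-type epithelium above that of mural cells. It had 12.48 CPM in mural cells, 80.8 CPM in fibroblasts, 0.921 CPM in endothelium, 8.06 CPM in p63-KO epithelium and 17.5 CPM in wild-type epithelium. The mural value is of few UMIs, since 3 UMIs amount to 2.08 CPM there, and this order was not tested. Col27a1, a fibrillar collagen of developing cartilage, had 33.98 CPM in mural cells, 28.03 CPM in fibroblasts, 5.53 CPM in endothelium, 14.5 CPM in p63-KO epithelium and 3.25 CPM in wild-type epithelium, and the intervals of mural cells (25.1 to 44.9, 49 UMIs) and fibroblasts (23.9 to 32.7) overlapped.

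All 6 type VI genes were at least 2-fold higher in fibroblasts than in p63-KO epithelium, where 20.6% of all genes were. None of them reached 5 CPM in p63-KO epithelium, so they were measured through fibroblasts alone. Col6a1 (chromosome 10), a chain of the classical type VI heterotrimer, had 308 CPM in mural cells, 1109 CPM in fibroblasts, 2.76 CPM in endothelium, 3.94 CPM in p63-KO epithelium and 0.175 CPM in wild-type epithelium. Col6a2, the second chain, had 198 CPM in mural cells, 743 CPM in fibroblasts, 0.921 CPM in endothelium, 2.49 CPM in p63-KO epithelium and 0.204 CPM in wild-type epithelium. Col6a3, the long chain with many von Willebrand factor domains, had 462 CPM in mural cells, 594 CPM in fibroblasts, 11.98 CPM in endothelium, 3.47 CPM in p63-KO epithelium and 0.146 CPM in wild-type epithelium, so mural cells came closest to fibroblasts for this chain. Of the alternative chains, Col6a5 had 8.32 CPM in mural cells, 57.6 CPM in fibroblasts, 0 CPM in endothelium, 0.654 CPM in p63-KO epithelium and 0.0729 CPM in wild-type epithelium, and Col6a6 had 51.3 CPM in mural cells, 306 CPM in fibroblasts, 0.921 CPM in endothelium, 0.794 CPM in p63-KO epithelium and 0.0875 CPM in wild-type epithelium. In wild-type epithelium none of the type VI genes reached 1 CPM.

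The fibril-associated collagens, which sit on fibril surfaces, followed the fibroblast pattern. Col12a1 had 61.0 CPM in mural cells, 236 CPM in fibroblasts, 0.921 CPM in endothelium, 1.21 CPM in p63-KO epithelium and 4.29 CPM in wild-type epithelium. Col14a1 had 70.0 CPM in mural cells, 618 CPM in fibroblasts, 0 CPM in endothelium, 2.53 CPM in p63-KO epithelium and 7.48 CPM in wild-type epithelium. Col16a1 had 33.3 CPM in mural cells, 219 CPM in fibroblasts, 0.921 CPM in endothelium, 3.08 CPM in p63-KO epithelium and 5.25 CPM in wild-type epithelium. Fibroblasts exceeded the other classes by a wide margin for these 3, and wild-type epithelium exceeded p63-KO epithelium for each. Col20a1 had 3.47 CPM in mural cells, 21.1 CPM in fibroblasts, 4.61 CPM in endothelium, 7.27 CPM in p63-KO epithelium and 5.56 CPM in wild-type epithelium; it shares its strand with the overlapping gene BX649560.1, so its counts are uncertain.

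The type IV genes divided by pair. Col4a1 and Col4a2, the chains of nearly every basement membrane, were highest in endothelium: Col4a1 had 983 CPM (933 to 1036) in mural cells, 415 CPM (399 to 432) in fibroblasts, 2353 CPM (2262 to 2446) in endothelium, 5.57 CPM (5.04 to 6.14) in p63-KO epithelium and 24.1 CPM (23.0 to 25.3) in wild-type epithelium. Col4a2 had 587 CPM in mural cells, 249 CPM in fibroblasts, 1397 CPM in endothelium, 3.52 CPM in p63-KO epithelium and 23.0 CPM in wild-type epithelium. The X-linked pair was highest in mural cells and was the pair most abundant in the epithelia: Col4a5 had 319 CPM in mural cells, 147 CPM in fibroblasts, 6.45 CPM in endothelium, 100.3 CPM in p63-KO epithelium and 183 CPM in wild-type epithelium. Col4a6 had 185 CPM in mural cells, 38.9 CPM in fibroblasts, 0 CPM in endothelium, 4.57 CPM in p63-KO epithelium and 59.8 CPM in wild-type epithelium, where the 0 in endothelium allows up to 2.76 CPM. Col4a3 and Col4a4, chains known from kidney, lung and eye basement membranes, were the 2 members highest in p63-KO epithelium; they fall below the level set for naming and were chosen after their values were seen. Col4a3 had 1.39 CPM in mural cells, 0.346 CPM in fibroblasts, 0 CPM in endothelium, 9.62 CPM in p63-KO epithelium and 2.25 CPM in wild-type epithelium. Col4a4 had 3.47 CPM in mural cells, 2.42 CPM in fibroblasts, 0.921 CPM in endothelium, 14.2 CPM in p63-KO epithelium and 5.94 CPM in wild-type epithelium.

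The partners of a pair kept a close ratio in some classes and not in others. There were 1.68 (1.54 to 1.83) Col4a1 UMIs for each Col4a2 UMI in mural cells, 1.67 (1.56 to 1.78) in fibroblasts, 1.68 (1.58 to 1.80) in endothelium, 1.58 (1.35 to 1.86) in p63-KO epithelium and 1.05 (0.978 to 1.12) in wild-type epithelium (intervals in parentheses). The 4 p63-KO classes overlapped in their intervals and wild-type epithelium as a whole lay below them. The p63-KO epithelial ratio rests on 400 Col4a1 and 253 Col4a2 UMIs. Of these, 160 and 87 were from the 56 ciliated-like cells, and 176 and 116 from the 1116 cells outside the ciliated-like, neuroendocrine-like and ionocyte-like subclusters. The part of RNA from the other p63-KO classes in this ratio was not tested. Within it, the ratio was 0.918 (0.837 to 1.01) in basal cells and 1.09 (0.932 to 1.28) in proliferating basal cells. It was 1.44 (1.16 to 1.79) in the cells between basal and suprabasal, 1.43 (1.12 to 1.83) in suprabasal and 1.80 (0.924 to 3.64) in superficial cells. The intervals of the between, suprabasal and superficial cells overlapped that of p63-KO epithelium. For Col4a5 over Col4a6 the ratio was 1.72 (1.48 to 2.01) in mural cells, 3.77 (3.25 to 4.39) in fibroblasts, 22.0 (19.7 to 24.6) in p63-KO epithelium and 3.07 (2.96 to 3.18) in wild-type epithelium. The X-linked partners were thus far more unequal in p63-KO epithelium than in the other classes with a ratio. For Col4a4 over Col4a3 it was 1.47 (1.34 to 1.63) in p63-KO epithelium and 2.64 (2.19 to 3.20) in wild-type epithelium. Outside type IV, Col1a1 over Col1a2 was 1.14 (1.09 to 1.20) in mural cells, 1.38 (1.37 to 1.40) in fibroblasts and 1.38 (1.30 to 1.46) in p63-KO epithelium, and Col6a1 over Col6a2 was 1.55 (1.34 to 1.81), 1.49 (1.44 to 1.55) and 1.58 (1.31 to 1.92) in the same classes. Genes can differ in how well their 3' ends are captured, so a ratio is read between classes and not as a number of chains.

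Col8a1, a short-chain collagen of vessel walls and of the membrane under corneal endothelium (chromosome 16, 57624258 to 57754737, mm10), had 65.2 CPM in mural cells, 715 CPM in fibroblasts, 8.29 CPM in endothelium, 96.4 CPM in p63-KO epithelium and 78.4 CPM in wild-type epithelium, so it was among the higher members in both epithelia. Among the transmembrane collagens, Col25a1, which in mice is known for its part in the innervation of muscle (chromosome 3, 130131501 to 130599877, mm10), was highest in mural cells, with 1523 CPM in mural cells, 488 CPM in fibroblasts, 10.1 CPM in endothelium, 28.1 CPM in p63-KO epithelium and 3.46 CPM in wild-type epithelium. Col23a1 had 85.3 CPM in mural cells, 128 CPM in fibroblasts, 21.2 CPM in endothelium, 2.74 CPM in p63-KO epithelium and 2.13 CPM in wild-type epithelium. Col13a1, known from neuromuscular junctions, was highest in endothelium, with 3.47 CPM in mural cells, 10.4 CPM in fibroblasts, 48.8 CPM in endothelium, 0.181 CPM in p63-KO epithelium and 0.102 CPM in wild-type epithelium. The multiplexins, whose ends can be released as fragments that act on vessels, were endothelial too. Col15a1 had 18.7 CPM in mural cells, 45.0 CPM in fibroblasts, 595 CPM in endothelium, 1.61 CPM in p63-KO epithelium and 0.204 CPM in wild-type epithelium. Col18a1, the parent of endostatin, had 15.3 CPM in mural cells, 66.1 CPM in fibroblasts, 218 CPM in endothelium, 4.68 CPM in p63-KO epithelium and 59.6 CPM in wild-type epithelium, so wild-type epithelium approached fibroblasts.

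The remaining 12 members stayed below 20 CPM in every class and, like Col4a3 and Col4a4, are outside the naming rule. Col9a2 reached 16.1 CPM, Col8a2 14.5 CPM, Col19a1 10.0 CPM, Col6a4 7.96 CPM and Col26a1 7.61 CPM in fibroblasts, where each of them was highest. Col28a1 was highest in endothelium, at 14.7 CPM. Col2a1, Col9a1, Col9a3, Col10a1, Col11a2 and Col22a1 stayed below 5 CPM in each class; Col2a1, Col9a1, Col9a3, Col10a1 and Col11a2 are collagens of cartilage.

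Between the epithelia of the 2 genotypes, 17 members had at least 5 CPM in either. Of these, 7 exceeded wild-type epithelium by 2-fold or more in p63-KO epithelium, where 15.1% of all genes were, and 6 were at least 2-fold lower, where 8.95% of all genes were. The median log2 ratio of the 17 was 0.29, beside -0.03 for all genes, and it changed sign when every cell was weighed equally, when a level of 20 CPM was asked for, or without the ciliated-like, neuroendocrine-like and ionocyte-like cells, so the median gives no common direction.

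The members that were lower in p63-KO epithelium were chiefly those of the basement membrane zone. Col4a6 had 4.57 CPM (4.09 to 5.09) in p63-KO epithelium, against 59.8 CPM (58.0 to 61.6) in wild-type epithelium, 13.1-fold lower (95% interval 11.7 to 14.7). Col18a1 had 4.68 CPM (4.19 to 5.21) in p63-KO epithelium and 59.6 CPM (57.8 to 61.5) in wild-type epithelium, 12.7-fold lower (95% interval 11.4 to 14.3). Both intervals of level are far apart for these genes. Col4a2 was 6.52-fold lower (95% interval 5.71 to 7.48) and Col4a1 4.33-fold lower (95% interval 3.88 to 4.84). Col14a1, at 2.53 CPM in p63-KO and 7.48 CPM in wild-type epithelium, was 2.95-fold lower (95% interval 2.49 to 3.52), and Col11a1, at 8.06 and 17.5 CPM in the same order, was 2.17-fold lower (95% interval 1.97 to 2.40). The smaller differences were in Col4a5, 1.83-fold lower (95% interval 1.78 to 1.88), and Col16a1, 1.71-fold lower (95% interval 1.44 to 2.03). Some of these values depended on the setting. In the 166 p63-KO epithelial cells without a UMI of another class's defining markers, the log2 ratio was -0.66 for Col4a1, inside the 2-fold limit, and -1.78 for Col18a1 and -1.21 for Col4a2, against -1.93, -3.42 and -2.41 over all cells. That of Col14a1 (-1.26) was inside the limit with doublets kept (-0.92) or with 5 CPM added (-0.73), and that of Col11a1 (-1.03) under 7 of 13 alternatives.

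The members that were higher were of different kinds. Col3a1 was 23.1-fold higher (95% interval 20.1 to 26.7), Col1a2 19.3-fold higher (95% interval 15.8 to 23.8) and Col1a1 11.1-fold higher (95% interval 9.77 to 12.8), all fibroblast transcripts that are taken up again below with the fibroblast markers. Col25a1 had 28.1 CPM (26.9 to 29.3) in p63-KO epithelium, against 3.46 CPM (3.03 to 3.93) in wild-type epithelium, 8.13-fold higher (95% interval 7.099 to 9.34). Col27a1 was 4.45-fold higher (95% interval 3.85 to 5.17). Col4a3 had 9.62 CPM (8.92 to 10.4) in p63-KO epithelium and 2.25 CPM (1.91 to 2.63) in wild-type epithelium, 4.28-fold higher (95% interval 3.59 to 5.13). Col4a4 was 2.39-fold higher (95% interval 2.13 to 2.68). So the chains of type IV went in both directions between these libraries, with the Col4a3 and Col4a4 pair higher and the other 4 chains lower. In the 166 p63-KO epithelial cells without a UMI of another class's defining markers, Dcn among them, the sign turned for Col4a3, with a log2 ratio of -0.24, Col11a1 (0.11) and Plod2, a lysyl hydroxylase (0.34). Col4a4 showed no difference there (-0.000544). The median of all genes was 0.15 in that setting, and 50.6% of its p63-KO cells were neuroendocrine-like, against 20.1% of all. When Dcn was not used, 1035 cells were kept, and the ratios of Col4a3 (1.68), Col4a4 (1.05) and Col11a1 (-0.83) kept the direction seen over all cells. Col8a1 and Col20a1 lay within 2-fold, 1.23-fold higher (95% interval 1.19 to 1.27) and 1.31-fold higher (95% interval 1.14 to 1.496).

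**Figure D2:**
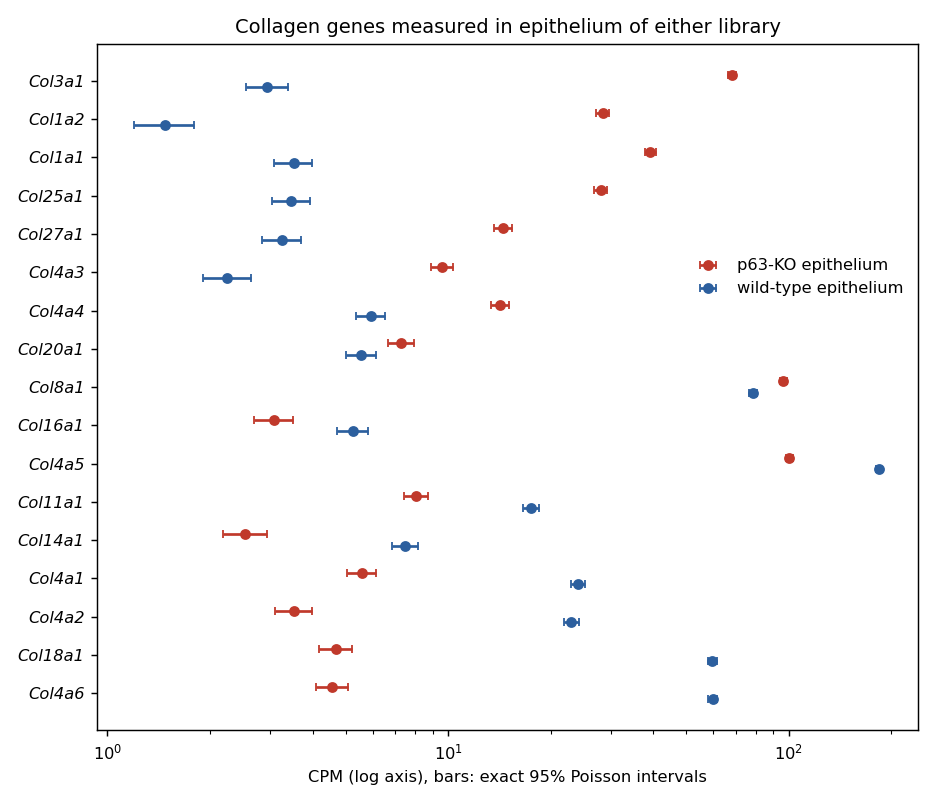
Levels of the 17 collagen genes with at least 5 CPM in p63-KO or wild-type epithelium, as CPM on a log axis, with exact 95% Poisson intervals that cover counting error in 1 library per genotype. Genes run from the highest ratio of p63-KO to wild type at the top (Col3a1, 68.1 against 2.95 CPM) to the lowest at the bottom (Col4a6, 4.57 against 59.8 CPM).

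The libraries differ in which epithelial cells they hold, since 334 neuroendocrine-like, 158 ionocyte-like and 56 ciliated-like cells were found among the 1664 p63-KO epithelial cells, and 21 ciliated-like cells among the 5369 of the wild type. Without those subclusters, 1116 p63-KO and 5348 wild-type cells remained, a comparison of folds added after the values were seen. Of 17 measured members, 7 were then at least 2-fold higher (12.2% of all genes) and 8 at least 2-fold lower (10.9% of all genes). The lower members now held Col8a1, at 13.4 CPM in p63-KO and 79.0 CPM in wild-type cells, 5.88-fold lower (95% interval 5.45 to 6.35), and Col16a1, 2.08-fold lower (95% interval 1.71 to 2.54). Col18a1, at 2.19 CPM in p63-KO and 59.7 CPM in wild-type cells, was 27.2-fold lower (95% interval 22.8 to 32.8), and Col4a6 was 11.9-fold lower (95% interval 10.5 to 13.4). Col4a1 was 7.75-fold lower (95% interval 6.63 to 9.11) and Col4a2 11.2-fold lower (95% interval 9.29 to 13.7), larger differences than over all epithelial cells. Col4a3 was 5.02-fold higher (95% interval 4.21 to 6.03), Col4a4 2.74-fold higher (95% interval 2.43 to 3.08) and Col27a1 4.57-fold higher (95% interval 3.91 to 5.38). Col25a1, at 9.49 CPM in p63-KO and 3.48 CPM in wild-type cells, was 2.72-fold higher (95% interval 2.33 to 3.19).

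Within p63-KO epithelium, Col8a1 was highest in neuroendocrine-like cells, and Col25a1 was higher in neuroendocrine-like and ionocyte-like cells. Col8a1 had 1196 CPM in neuroendocrine-like cells, against 13.4 CPM in the 1116 other epithelial cells, 89.1-fold higher (95% interval 82.6 to 96.2). Its level was 1621 CPM (1575 to 1668) in subcluster 4, led by Car10, Csmd2 and Chga, 592 CPM (553 to 633) in subcluster 8, led by Gzma, Cnpy1 and Neurog3, and 619 CPM (558 to 684) in subcluster 11, led by Pyy, Sst and Isl1. All 3 neuroendocrine-like subclusters therefore stood above the 134 CPM of wild-type basal cells. Ciliated-like cells had 46.8 CPM of Col8a1, 3.49-fold higher (95% interval 2.92 to 4.15), and ionocyte-like cells 3.54 CPM, 3.79-fold lower (95% interval 2.51 to 6.01), than the same other cells. Ciliated-like cells of the wild type had 9.49 CPM of Col8a1, where 3 UMIs amount to 5.70 CPM. Those of the p63-KO library were also rich in type I and III transcripts, as given below. The part of fibroblast RNA in their Col8a1 was not tested. Col25a1 had 117 CPM in neuroendocrine-like cells and 132 CPM in ionocyte-like cells, against 9.49 CPM in the other epithelial cells, 12.4-fold higher (95% interval 11.0 to 13.9) and 13.9-fold higher (95% interval 12.49 to 15.5), while ciliated-like cells had 9.55 CPM. Across subclusters it reached 248 CPM in ionocyte-like subcluster 7, 242 CPM in subcluster 11 and 147 CPM in subcluster 4, but 6.77 CPM in subcluster 8, so subcluster 8 had little of it. Col28a1 had 14.4 CPM in neuroendocrine-like and 0.597 CPM in the other epithelial cells, 24.1-fold higher (95% interval 15.8 to 37.4), and Col9a2 8.80 and 0.175 CPM in the same order; both were chosen after their values were seen.

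In neuroendocrine-like cells 4 of the type IV chains were lower than in the other epithelial cells and 2 were higher. Col4a5 had 9.80 CPM there and 113 CPM in the other epithelial cells, 11.5-fold lower (95% interval 8.67 to 15.5). Col4a4 was 13.6-fold lower (95% interval 6.22 to 37.1) and Col4a3 18.9-fold lower (95% interval 6.45 to 92.1), while no UMI of Col4a6 was counted, which allows up to 0.6 CPM. Col4a1, at 10.8 CPM in neuroendocrine-like and 3.09 CPM in the other epithelial cells, was 3.50-fold higher (95% interval 2.53 to 4.77), and Col4a2, at 8.60 and 2.04 CPM in the same order, 4.23-fold higher (95% interval 2.91 to 6.05). Across the other subclusters Col4a5 had 132 CPM in suprabasal-like subcluster 1, 107 CPM in proliferating-like subcluster 2, whose leading genes also include the neutrophil genes S100a8 and S100a9, 106 CPM in subcluster 3, 107 CPM in subcluster 5 and 106 CPM in mucous-like subcluster 6. It had 44.0 CPM (36.2 to 53.04) in ionocyte-like subcluster 7, 99.7 CPM (90.2 to 110.0) in ionocyte-like subcluster 9 and 69.5 CPM (60.9 to 79.1) in ciliated-like subcluster 10, so subclusters 7 and 10 lay below the rest of these. Col4a3 was highest in subcluster 3, led by Cryab, Ntf3 and Trabd2b, at 17.4 CPM (14.4 to 20.8), and Col4a4 in subcluster 2, at 22.6 CPM (20.5 to 24.8). Col18a1 was higher in all 3 rarer types than the 2.19 CPM of the other epithelial cells, with 13.0 CPM in neuroendocrine-like cells, 5.93-fold higher (95% interval 4.32 to 8.06), 10.3 CPM in ionocyte-like cells, 4.71-fold higher (95% interval 3.44 to 6.38), and 23.6 CPM in ciliated-like cells, 10.7-fold higher (95% interval 8.004 to 14.4). Col27a1 was highest in ciliated-like cells of both genotypes, at 63.9 CPM in the p63-KO library and 49.4 CPM in the wild type, where 21 cells gave 26 UMIs.

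In wild-type epithelium, the collagens were lower at each step from basal to superficial cells. They made up 0.0672% (0.0662 to 0.0681) of UMIs in 2605 basal cells, 0.0568% (0.0554 to 0.0582) in 904 proliferating basal cells, 0.0459% (0.0444 to 0.0475) in 643 cells between the layers, 0.0342% (0.0332 to 0.0352) in 773 suprabasal cells and 0.0202% (0.0193 to 0.0211) in 423 superficial cells. Of 16 members with at least 5 CPM in basal or superficial cells, 14 were at least 2-fold higher in basal cells, where 33.7% of all genes were, and 0 were at least 2-fold lower, where 13.4% of all genes were. That level was reached by 16 members in basal and 2 in superficial cells. Most members thus entered through basal cells alone and could not be called lower there, so the filter largely set this outcome. The 14 included Col1a1 and Col3a1, for which 1 cell, taken up below, held 102 of 175 and 134 of 150 basal UMIs. The count was not repeated without that cell. The 2605 basal cells include 2 subclusters led by DNA replication genes. Col18a1 had 98.0 CPM in basal, 87.3 CPM in proliferating basal, 38.3 CPM in between, 12.3 CPM in suprabasal and 2.597 CPM in superficial cells, 37.7-fold higher (95% interval 25.3 to 59.0) in basal than in superficial cells. Col8a1 had 134, 135, 13.7, 12.1 and 3.14 CPM in the same layers, so its step lay right above the basal cells. Col11a1 had the same step, with 30.4, 28.7, 2.68, 3.26 and 0.216 CPM; superficial cells gave 2 UMIs, and the ratio of basal to superficial was 140.5 with a counting interval of 38.8 to 1162. Col4a1 and Col4a2 were lower later, with 33.6, 29.3, 29.7, 12.03 and 2.92 CPM of Col4a1 and 36.6, 26.9, 20.6, 8.41 and 1.62 CPM of Col4a2.

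The X-linked chains did not follow this order: Col4a5 had 180.1 CPM in basal, 144 CPM in proliferating basal, 244 CPM in between, 214 CPM in suprabasal and 155 CPM in superficial cells. Col4a6 had 69.1, 54.3, 82.8, 60.2 and 23.9 CPM. Both peaked in the cells between the layers, and the ratio of Col4a5 to Col4a6 was 2.61 (2.47 to 2.75) in basal and 6.48 (5.62 to 7.51) in superficial cells. Superficial cells were left with type IV for 91.8% of their collagen UMIs. Col12a1 had 8.57 CPM in basal and 0.216 CPM in superficial cells, Col14a1 13.2 and 0.325 CPM, and Col16a1 9.09 and 0.216 CPM, with 2 or 3 UMIs behind each superficial value. Col25a1 had 6.199 CPM in basal and 0.541 CPM in superficial cells, Col4a4 10.2 and 1.73 CPM. Col20a1 differed least between these layers, with 5.03 CPM in basal and 4.54 CPM in superficial cells. Median depth ran the other way, 10040 UMIs in basal and 17518 UMIs in superficial cells. With each cell thinned to 2000 UMIs, Col18a1 was found in 17.5% (16.03 to 19.0) of basal and 0.711% (0.147 to 2.06) of superficial cells.

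**Figure D3:**
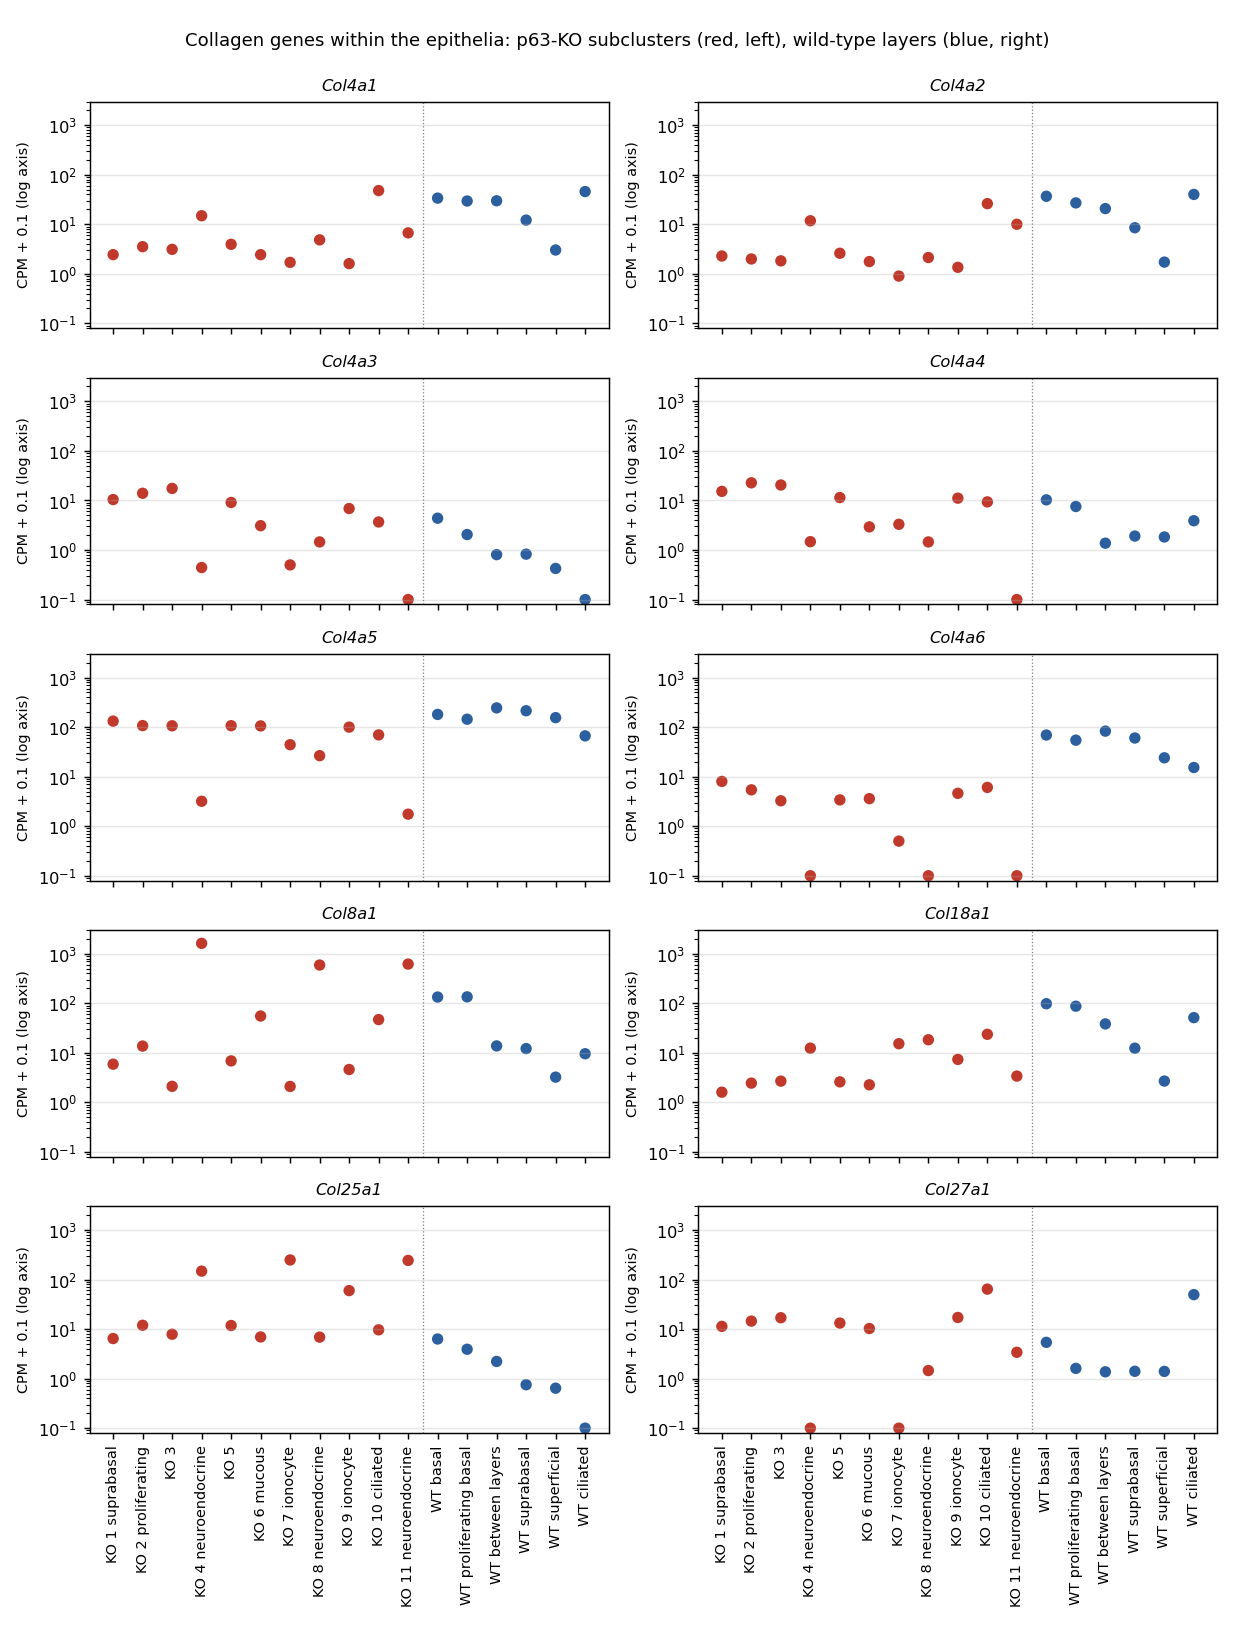
Levels of 10 collagen genes, as CPM + 0.1 on a log axis, in the 11 subclusters of p63-KO epithelium (red, left) and the 6 layers or types of wild-type epithelium (blue, right), each point 1 subcluster or layer of 1 library. Col8a1 is highest in the 3 neuroendocrine-like subclusters, Col27a1 in the ciliated-like cells of both libraries, and Col18a1 lies lower in each wild-type layer from basal to superficial.

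The type I and III genes were higher in p63-KO epithelium, as was the summed level of the fibroblast markers, chiefly through Dcn. Fibroblasts were 21.8% of the p63-KO cells and 0.181% of the wild-type cells. The 10 fibroblast markers summed to 438 CPM in p63-KO epithelium and 55.3 CPM in wild-type epithelium, against 10459 CPM in fibroblasts; 1 of the 10 was in at least 25% of the cells of either epithelium, 0 of 10 were at 0 in p63-KO and 1, Tcf21, in wild-type epithelium. Dcn alone gave 415 CPM of the p63-KO sum and 34.5 CPM of the wild-type sum, and without it the sums were 23.0 and 20.8 CPM. Of these, Fbn1 gave 7.38 CPM in p63-KO and 18.47 CPM in wild-type epithelium, the only marker lower in p63-KO. Lum had 7.003 CPM in p63-KO and 0.306 CPM in wild-type epithelium, and Mfap4 had 4.43 and 0.263 CPM in the same order. Dpt, Twist2, Tcf21 and Foxf1 were also higher in p63-KO epithelium, at lower levels. Pdgfra (0.682 and 0.598 CPM) and Ogn differed little. Set against their level in fibroblasts, 9 of the 10 markers stood in p63-KO epithelium at 0.235% to 0.597%, with Dcn at 8.15%. Of the 19 collagens with at least 100 CPM in fibroblasts, 12 stood between 0.210% and 0.584%, among them Col1a1 at 0.332%, Col1a2 at 0.333% and Col3a1 at 0.421%. These percentages overlap those of the markers. The other 7 stood higher: Col4a1 at 1.34%, Col16a1 and Col4a2 at 1.41% each, Col23a1 at 2.15%, Col25a1 at 5.76%, Col8a1 at 13.5% and Col4a5 at 68.4%. The part of fibroblast RNA in the type I and III values was not tested.

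**Figure D4:**
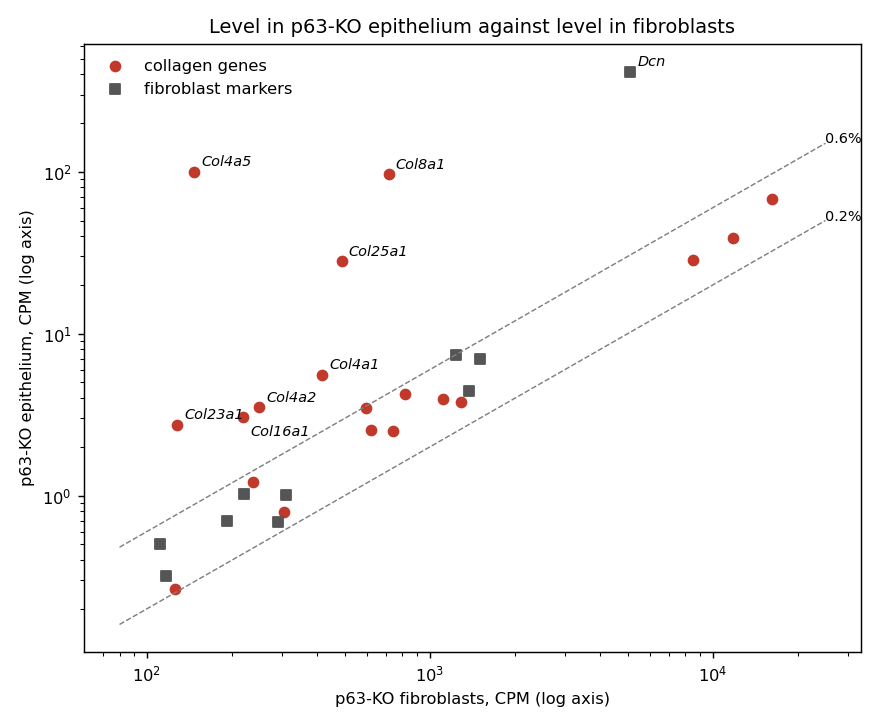
Level in p63-KO epithelium against level in p63-KO fibroblasts, both as CPM on log axes, for the 19 collagen genes with at least 100 CPM in fibroblasts (red circles) and the 10 fibroblast markers (grey squares). Dashed lines mark 0.2% and 0.6% of the fibroblast level; 12 collagens lie in this band, while Col4a5 (68.4%), Col8a1 (13.5%), Col25a1 (5.76%) and the marker Dcn (8.15%) lie well above it.

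The shares of cells with a UMI, at 2000 UMIs per cell, gave Col1a1 in 80.8% (69.9 to 89.1) of mural, 97.7% (95.9 to 98.8) of fibroblast, 3.03% (0.369 to 10.5) of endothelial, 4.93% (3.93 to 6.09) of p63-KO epithelial and 0.322% (0.188 to 0.515) of wild-type epithelial cells. For Col3a1 the shares were 6.06% (1.68 to 14.8) of endothelial, 8.46% (7.16 to 9.91) of p63-KO epithelial and 0.227% (0.117 to 0.396) of wild-type epithelial cells. The intervals of endothelium and p63-KO epithelium overlapped for both genes, on 2 and 4 of 66 endothelial cells, at median depths of 11131 and 25356 UMIs before thinning; by level, Col1a1 was 3.27-fold lower (95% interval 1.91 to 6.15) and Col3a1 2.95-fold lower (95% interval 1.999 to 4.57) in endothelium than in p63-KO epithelium. Col18a1 was in 33.3% (22.2 to 46.0) of endothelial, 1.77% (1.19 to 2.53) of p63-KO epithelial and 12.4% (11.5 to 13.3) of wild-type epithelial cells, and Col4a6 in 0.609% (0.292 to 1.12) of p63-KO and 10.5% (9.73 to 11.4) of wild-type epithelial cells. The lower share in p63-KO epithelium for these genes goes the same way as the level. Col8a1 was in 15.4% (13.7 to 17.2) of p63-KO and 15.0% (14.0 to 15.96) of wild-type epithelial cells, and Col4a5 in 14.3% (12.6 to 16.1) and 30.04% (28.8 to 31.3). Thinning left out 21 of 1664 p63-KO and 86 of 5369 wild-type epithelial cells, 6 fibroblasts and 3 endothelial cells.

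A few cells held much of the type I and III transcripts of both epithelia. In the wild type, 1 cell with 16992 UMIs, and with UMIs of 9 fibroblast and 9 epithelial markers, held 102 of 241 Col1a1, 70 of 101 Col1a2 and 134 of 202 Col3a1 UMIs. Without this cell, Col1a1 was 19.3-fold higher (95% interval 16.3 to 23.1) in p63-KO than in wild-type epithelium, Col1a2 62.8-fold higher (95% interval 44.1 to 92.7) and Col3a1 68.6-fold higher (95% interval 54.0 to 88.5), so the size of these folds depended on it and their direction did not. In the p63-KO library, the 56 ciliated-like cells had 328 CPM of Col1a1 and 336 CPM of Col3a1, where the other subclusters ranged from 8.25 to 30.4 CPM of Col1a1 and from 21.9 to 66.0 CPM of Col3a1. Their fibroblast markers without Dcn summed to 88.6 CPM, against 14.4 to 27.1 CPM in the other subclusters, and 11 of the 56 cells, those with a UMI of at least 4 fibroblast markers, held 93.6% of the type I and III UMIs. Col4a1 was also high there, at 47.7 CPM, beside 45.6 CPM in the ciliated-like cells of the wild type.

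The 73 mural cells were of 2 clusters that used different collagens. The cluster of 50 cells was led by the smooth muscle genes Actg2 and Myh11, and the cluster of 23 cells by the pericyte gene Rgs5. Col25a1 had 1875 CPM in the smooth-muscle-led cluster and 64.3 CPM in the pericyte-led cluster, 29.1-fold higher (95% interval 18.4 to 49.3). Col4a5 had 396 CPM and Col4a6 229.7 CPM in the smooth-muscle-led cluster, and neither had a UMI in the pericyte-led cluster, where 3 counts make 10.7 CPM, so they were at least 36.9-fold and at least 21.4-fold higher. The other type IV pair went the opposite way: Col4a1 had 536 CPM in the smooth-muscle-led and 2841 CPM in the pericyte-led cluster, 5.30-fold lower (95% interval 4.77 to 5.90), and Col4a2 349 and 1573 CPM. The Col4a1 level of the pericyte-led cluster thus lay near the 2353 CPM of endothelium. Col1a1 was 2.98-fold higher (95% interval 2.61 to 3.41) in the smooth-muscle-led cluster, Col6a1 2.90-fold higher (95% interval 2.04 to 4.25) and Col23a1 5.68-fold higher (95% interval 2.37 to 17.8). The mural levels of Col25a1, Col4a5 and Col4a6 given above were thus mainly those of the smooth-muscle-led cluster. Whether its cells came from vessels or from the muscle layer was not tested. The classes were clustered without the collagen genes, but the 2 mural clusters are of 1 library and their differences were not tested.

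Fibroblasts divided into 6 subclusters that shared the type I and III genes and differed in the less abundant members. Over the 6, Col1a1 ranged from 8592 to 14908 CPM and Col3a1 from 10003 to 22279 CPM, with subcluster 3 lowest and subcluster 1 highest for both. In subcluster 3 (89 cells, led by Tmem132d, Wfdc18 and Prdm6), Col8a1 had 1832 CPM, against 516 CPM in the other fibroblasts, 3.55-fold higher (95% interval 3.34 to 3.78). Col23a1 was 4.26-fold higher (95% interval 3.67 to 4.94) there, Col4a6 3.54-fold higher (95% interval 2.67 to 4.66), Col4a5 2.56-fold higher (95% interval 2.21 to 2.97) and Col6a3 2.01-fold higher (95% interval 1.87 to 2.17). So the fibroblasts with least type I and III had most of the X-linked type IV chains and of Col8a1. In subcluster 2 (109 cells), Col6a5 had 151 CPM, against 32.5 CPM in the other fibroblasts, 4.63-fold higher (95% interval 3.71 to 5.79), and Col19a1, chosen after its values were seen, 38.3 and 2.42 CPM. In subcluster 1 (147 cells), Col5a3 was 2.03-fold higher (95% interval 1.69 to 2.42), while Col15a1 was 12.05-fold lower (95% interval 6.02 to 28.2) and Col8a1 5.07-fold lower (95% interval 4.49 to 5.73). In subcluster 5 (53 cells), Col14a1 had 180.4 CPM, against 670.2 CPM in the other fibroblasts, 3.72-fold lower (95% interval 3.07 to 4.53). Fibroblast-like cells also held 10 cells of 517 with at least 2 glia markers.

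**Figure D5:**
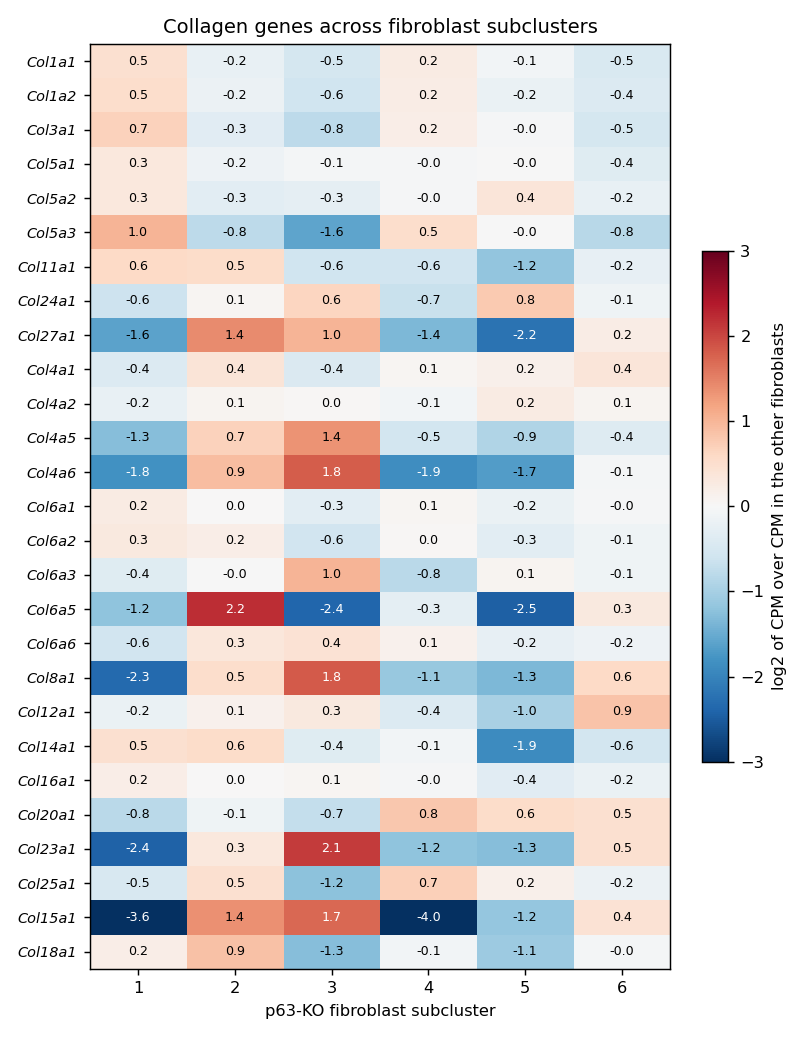
Log2 of the level in each of the 6 p63-KO fibroblast subclusters over the level in the other fibroblasts, for the 27 collagen genes with at least 20 CPM in fibroblasts, from 1 library. Subcluster 3 is high for Col8a1, Col23a1 and Col4a6, subcluster 2 for Col6a5, and Col15a1 is low in subclusters 1 and 4.

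The genes that fold, cut, cross-link and bind collagen were read from lists drawn up with earlier results of these data known. Of 21 genes for chain folding and modification, 16 were measured in the epithelia, with 2 higher and 2 lower in p63-KO by 2-fold or more (beside 15.1% of all genes higher and 8.95% lower), and 20 in fibroblasts against p63-KO epithelium, with 12 higher and 0 lower (beside 20.6% of all genes higher and 21% lower). Between the epithelia the folding genes thus lay near the share of all genes. In this list and those below, genes under 5 CPM in p63-KO epithelium entered the fibroblast comparison through fibroblasts alone. Such genes could not be called lower in fibroblasts. P4hb, a subunit of prolyl 4-hydroxylase, had 532 CPM in p63-KO and 227 CPM in wild-type epithelium, 2.34-fold higher (95% interval 2.30 to 2.39), and lay inside the 2-fold limit in the cells without other markers, at a log2 ratio of 0.14, or 0.97 when Dcn was not used. Mia3, which helps load procollagen for export, was 2.63-fold higher (95% interval 2.54 to 2.73). P3h2, a prolyl 3-hydroxylase, had 3.97 CPM in p63-KO and 20.5 CPM in wild-type epithelium, 5.16-fold lower (95% interval 4.54 to 5.88), and Plod2, a lysyl hydroxylase, was 2.10-fold lower (95% interval 1.90 to 2.32). Serpinh1, the collagen chaperone Hsp47, had 1989 CPM in fibroblasts, 89.0 CPM in p63-KO epithelium and 148 CPM in wild-type epithelium, and Ppib, a prolyl isomerase, 803, 787 and 395 CPM.

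Of 14 genes for propeptide cleavage and cross-linking, 3 were measured in the epithelia, with 2 higher and 0 lower in p63-KO (beside 15.1% of all genes higher and 8.95% lower), and 10 in fibroblasts against p63-KO epithelium, all 10 higher (beside 20.6% of all genes higher and 21% lower). Of these 10, only Bmp1, Pcolce and Pxdn had at least 5 CPM in p63-KO epithelium. The others were measured through fibroblasts alone, so their calls largely follow from the filter. Pcolce, an enhancer of propeptide cleavage, had 67.7 CPM in p63-KO and 8.30 CPM in wild-type epithelium, 8.16-fold higher (95% interval 7.48 to 8.91), and Pxdn, the peroxidase that cross-links type IV collagen, was 3.40-fold higher (95% interval 2.82 to 4.10). Bmp1, the protease itself, had 8.33 CPM in p63-KO and 11.8 CPM in wild-type epithelium. Lox, lysyl oxidase, had 783 CPM in fibroblasts and 3.06 CPM in p63-KO epithelium, Loxl1 363 and 4.43 CPM, and Adamts2, which removes amino-terminal propeptides, 363 and 1.29 CPM.

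Of 10 collagen receptors, 3 were measured in the epithelia, with 1 higher and 0 lower in p63-KO (beside 15.1% of all genes higher and 8.95% lower). Adgrg1, a receptor for type III collagen, had 49.97 CPM in p63-KO and 22.4 CPM in wild-type epithelium, 2.23-fold higher (95% interval 2.10 to 2.37), while Itgb1 had 255 CPM in p63-KO and 223 CPM in wild-type epithelium and Ddr1 had 114 CPM in p63-KO and 133 CPM in wild-type epithelium. Ddr2, the receptor known from connective tissue cells, had 286 CPM in fibroblasts and 1.45 CPM in p63-KO epithelium, and Mrc2 146 and 3.45 CPM. Fibroblasts against p63-KO epithelium had 3 of 6 measured receptors higher and 2 lower (beside 20.6% of all genes higher and 21% lower). Of 15 genes for breakdown, 5 were measured in the epithelia, with 1 higher and 1 lower, against the same 15.1% and 8.95%. Timp3, an inhibitor of matrix proteases, had 102 CPM in p63-KO and 18.0 CPM in wild-type epithelium, 5.66-fold higher (95% interval 5.32 to 6.01), Timp2 had 66.7 CPM in p63-KO and 35.1 CPM in wild-type epithelium, and Mmp11 was 3.57-fold lower (95% interval 3.04 to 4.21). In fibroblasts against p63-KO epithelium, 8 of 9 measured were higher and 1 lower, against the same 20.6% and 21%, and Mmp2, a gelatinase, had 255 and 1.25 CPM.

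Of 15 basement membrane partners, 10 were measured in the epithelia, with 0 higher and 3 lower in p63-KO (beside 15.1% of all genes higher and 8.95% lower). Hspg2, which encodes perlecan, had 3.63 CPM in p63-KO and 46.7 CPM in wild-type epithelium, 12.9-fold lower (95% interval 11.3 to 14.6), close to the folds of Col18a1 and Col4a6. Lamb1, a laminin chain, was 2.10-fold lower (95% interval 1.99 to 2.22) and Lama3, a chain of the laminin under stratified epithelia, 2.002-fold lower (95% interval 1.92 to 2.09). In fibroblasts against p63-KO epithelium, 10 of 15 were higher and 5 lower (beside 20.6% of all genes higher and 21% lower); Sparc, a collagen-binding protein, had 4312 and 389 CPM, Lama2 791 and 1.57 CPM, and Lamc1 241 and 71.9 CPM. The median log2 ratio of p63-KO over wild-type epithelium was 0.35 for the folding genes, 1.40 for cleavage and cross-linking, 0.19 for receptors, 0.22 for breakdown and -0.51 for the basement membrane partners, beside -0.03 for all genes.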

How the data were processed

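Single-cell 3' libraries of embryonic esophageal epithelium, 1 per genotype, were analysed. The deposited values are whole-number UMI counts per gene and barcode, not normalized; per the submitters' processing notes they were made by the authors with Cell Ranger 7.1.0 and mm10. The annotation release, cell calling, strand and intron counting were not given in the sources used here. Cells needed 500 or more genes, 1000 or more UMIs and no more than 10% mitochondrial UMIs (2422 p63-KO and 5787 wild-type); neighbours of simulated doublets were removed at 0.8% per 1000 cells (47 and 268). Cells were clustered jointly on 2000 variable genes without collagens, 30 principal components and 20 neighbours, by Leiden at resolution 1, and by class at 0.6 (leidenalg 0.10.2, scikit-learn 1.9.0, Python 3.11.15). A cluster was named if at least 3 markers were in 25% of its cells, in subclusters also at least 2-fold higher than elsewhere; these limits were set after seeing the data. Layers of the wild type were given by the markers with the highest score. UMIs were summed per class and scaled to CPM; genes with at least 5 CPM in either class were measured, a 2-fold limit counted them, and log2 ratios had 1 CPM added. Members with at least 20 CPM in any class were named, with up to 3 genes by ratio and 3 by fibroblast level from each pathway list; others are marked as chosen after their values were seen. Members and lists were chosen with earlier results of these data known. RefSeq promoter windows matched 33 of 42 members. Median depth was 25356 UMIs per p63-KO and 11051 per wild-type epithelial cell; 3 UMIs amount to 0.0418 and 0.0438 CPM of the summed epithelia. Alternatives were other cell filters, cell weights, minimum levels and scalings.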

Additional observations from a re-analysis of the deposited data

How the results depend on the processing

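No paired analysis was possible because each group has 1 library, and no library could be left out. The count of members at least 2-fold lower in p63-KO epithelium, 6, became 10 with no minimum level. The count at least 2-fold higher, 7, became 11 with doublets kept, 13 at a minimum of 1 CPM, 4 at a minimum of 20 CPM and 22 with no minimum. The median log2 ratio, 0.29, became 1.12 with doublets kept, 0.88 at a minimum of 1 CPM and 0.64 without proliferating subclusters, and turned to -0.15 with every cell weighed equally, -0.29 at a minimum of 20 CPM and -0.71 without the ciliated-like, neuroendocrine-like and ionocyte-like subclusters, where the median of all genes was -0.11. The count of members highest in p63-KO epithelium, 2, became 1 in cells without a UMI of another class's defining markers and 0 at a minimum of 20 CPM. The count higher in basal than superficial cells, 14, became 6 at a minimum of 20 CPM and 33 with no minimum. The collagen share of fibroblast UMIs, 4.52%, became 4.71% in cells without other markers, with and without the use of Dcn, and 4.48% with equal weights. The share in p63-KO epithelium, 0.0469%, became 0.0588% with doublets kept, 0.0500% at 5% mitochondrial UMIs, 0.0809% without other markers, 0.0493% when Dcn was not used for this, 0.0587% with equal weights, 0.0569% with the 50 most abundant genes out of the total, 0.0341% without ciliated-like, neuroendocrine-like and ionocyte-like cells and 0.0508% without proliferating ones. The share in wild-type epithelium, 0.0500%, became 0.0508%, 0.0495%, 0.0441%, 0.0543%, 0.0618% and 0.0487% under the same changes with doublets, mitochondrial UMIs, other markers, weights, abundant genes and proliferating cells, and 0.0494% with collagens allowed in the clustering. The ratio of Col4a1 to Col4a2 in p63-KO epithelium, 1.58, became 1.95 without other markers when Dcn was not used.

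In cells without a UMI of another class's defining markers, the log2 ratio of p63-KO over wild-type epithelium turned for Col4a3 to -0.24 (1.71 over all cells), for Col11a1 to 0.11 (-1.03) and for Plod2 to 0.34 (-0.99), with a median of 0.15 for all genes. For Col4a4 it went from 1.13 to -0.000544, which is no difference. That setting kept 166 of 1664 p63-KO epithelial cells, 50.6% of them neuroendocrine-like, against 20.1% of all, and the cause was not tested further. With Dcn not used, 1035 cells were kept and the values were 1.68, 1.05 and -0.83 for Col4a3, Col4a4 and Col11a1. The use of markers without Dcn, the removal of the wild-type cell richest in type I and III and the folds outside the rarer subclusters were chosen after seeing the data. Over the 16 comparison results, 108 of 142 alternative values stayed the same within the limits set, and over single genes 462 of 650. Depth limits mural and endothelial cells most, where 3 UMIs amount to 2.08 and 2.76 CPM.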

Other observations

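Some cells stood outside the classes compared. In the wild-type library 10 fibroblast-like cells gave collagens 5.59% (5.38 to 5.79) of their UMIs, with 22327 CPM of Col3a1, 13356 CPM of Col1a1 and 10590.1 CPM of Col1a2, near the levels of the 517 fibroblasts of the p63-KO library. In the p63-KO library 19 immune-like cells gave 0.312% (0.292 to 0.334), most of it Col3a1, Col1a1 and Col1a2, at 1141, 939 and 579 CPM. Low-depth cells that were not named, 20 in the p63-KO and 139 in the wild-type library, gave 0.0318% and 0.00969%.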
